A study of Mus musculus with 13 samples.

Results

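Close neighbours among the Class I Sox9 peaks of mouse rib cartilage are described here. A Class I peak was taken as paired where another Class I peak overlapped it or lay within 1000 bp, edge to edge. Members were thus chosen by the measured starts and ends of the rib peaks. The rule chose 1706 of the 6794 Class I peaks, and the other 5088 are called single. The Class I list is one part of a rib list of 27656 peaks, which also holds 20862 Class II peaks, and a second Sox9 list from nasal cartilage holds 17440 peaks. Rib chondrocytes, the cells that make cartilage, were taken at postnatal day 1 and nasal septum chondrocytes at embryonic day 17.5, both freed by enzyme from wild-type, untreated ICR mice. The same Sox9 antibody was used in both tissues, and the series holds 13 ChIP-seq libraries in all, of which the 2 Sox9 libraries enter here. The number of animals behind each library is not stated in the labels. All positions are on mm9, 1-based.

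Sox9 is an HMG-box transcription factor that bends DNA and is required for cartilage to form. Chondrocytes use it to drive the genes of the cartilage matrix, often through distant enhancers. On such enhancers it can bind as a Sox9 dimer, and its HMG-box partners Sox5 and Sox6 can bind nearby. In the published study of these libraries, Class I is the name of the peaks near transcription start sites and Class II that of peaks farther from them. The labels and files do not state the distance that divides them. Gene positions on mm9 were not used here, so groups are named by position, and the chondrocyte label could not be checked against marker genes because the lists give peak positions and name a gene beside 1 Class I peak alone.

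The lists give chromosome, start and end of each peak, without height, fold or significance, so the depth behind a peak is unknown. Each tissue had a single Sox9 library, without a replicate. Intervals are therefore 95% intervals of counting error alone, for shares exact (Clopper-Pearson) and for differences of shares by Newcombe's method. Members of one group are not independent, so intervals over members are too narrow. No p-value was computed, because peaks are not replicates.

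Most paired Class I peaks stood in groups of exactly 2. The 1706 paired peaks formed 776 groups, each a run of peaks with gaps of at most 1000 bp. Of these groups, 669 had 2 members, or 86.2%, and held 1338 peaks. The other 107 groups had more and held 368 peaks. There were 83 groups of 3, 13 of 4, 7 of 5, 1 of 6, 1 of 8 and 2 of 9. The share of peaks with such a neighbour was 25.1% in the Class I list (24.1% to 26.2%), 15.1% in the Class II list and 21.0% in the nasal list.

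The members of Class I pairs mostly lay well within the limit. Over the 930 gaps between adjacent paired peaks, the median was 344 bp, with quartiles at 171 and 607 bp, and 66.3% were under 500 bp. In 60 cases, or 6.45%, the adjacent peaks shared bases, by up to 256 bp. The fullest 100 bp bin was that of 101 to 200 bp, with 142 cases. From there the number declined to 37 cases at 901 to 1000 bp. The largest gaps inside the limit were 993, 995 and 1000 bp, and the smallest outside were 1002, 1005 and 1008 bp, so the limit fell on no break in the spacing.

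**Figure D1:**
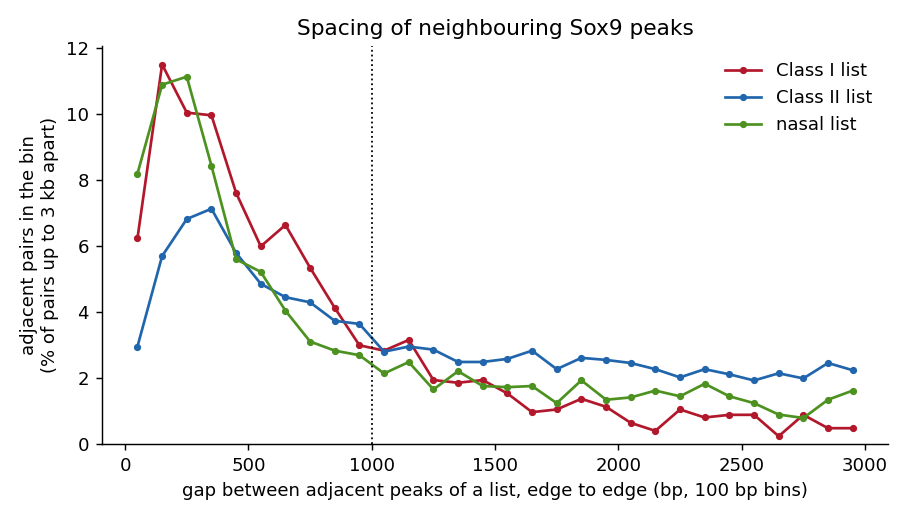
Gaps between adjacent peaks of the same list, in 100 bp bins up to 3 kb, as a percentage of all adjacent pairs up to 3 kb apart (y axis) against the gap in bp (x axis), with 1 line per list. Pairs that share bases enter the percentage but have no point, and the dotted line marks 1000 bp. The Class I line peaks at 11.5% at 101 to 200 bp and falls to 0.486% at 2901 to 3000 bp, where the Class II line stands at 2.24%.

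Gaps between adjacent peaks were concentrated at short range more in the Class I list than in the Class II list. For each gap of 1001 to 2000 bp, the Class I list had 4.23 adjacent pairs within 1000 bp, the nasal list 3.72 and the Class II list 1.95. Within 1000 bp, the median gap of Class II peaks was 419 bp and that of nasal peaks 278 bp. The rule used these gaps, so they are given as a description. A class drawn within a fixed distance of start sites would itself limit how far apart its peaks can stand, and that limit and the spacing cannot be told apart here. Peak widths matter to the shortest gaps. No Class I peak was wider than 498 bp, and the median width was 183 bp in paired peaks and 175 bp in single ones. Whether single enrichments were cut into several peaks was not tested.

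Paired peaks stood slightly later in the Class I list than single ones, with a median place of 3603 against 3332.5. The meaning of the order of lines is not stated in the labels or the files. Of the paired peaks, 47.1% stood in the first 50% of the list, against 51.0% of the single peaks. In groups of 2, the earlier-listed member had a median place of 2267 and the later-listed one 5018, with a median difference of 1908 places. These places were not set against those of unrelated Class I peaks, so they show no trait of pairs.

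Nasal peaks overlapped paired Class I peaks less often than single ones. An overlap meant at least 1 shared bp with a nasal peak, and 68.8% of all Class I peaks had one. Among paired peaks the share was 1058 of 1706, or 62.0% (59.7% to 64.3%). Among single peaks it was 3619 of 5088, or 71.1% (69.9% to 72.4%). The difference was -9.11 percentage points (-11.7 to -6.51), an interval that does not include 0. The nasal list took no part in choosing the paired peaks. With only the first peak of each group counted, so that no group entered more than once, the difference was -7.73 points (-11.4 to -4.18).

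The lower nasal overlap of paired peaks was present along the whole list. Cut by place into 10 bins, the list went from 82.5% of paired and 90.5% of single peaks overlapped in bin 1 to 41.7% and 49.4% in bin 10. The paired share was below the single share in each of the 10 bins, and the interval of the difference left out 0 in 5 of them. Standardised over the bins, the difference was -7.94 points (-10.5 to -5.42). Standardised over 10 bins of width it was -8.88 points (-11.5 to -6.27). The paired share was also the lower in each of the 20 chromosomes with Class I peaks, from -0.117 points on chromosome 6 to -18.0 on chromosome 17.

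**Figure D2:**
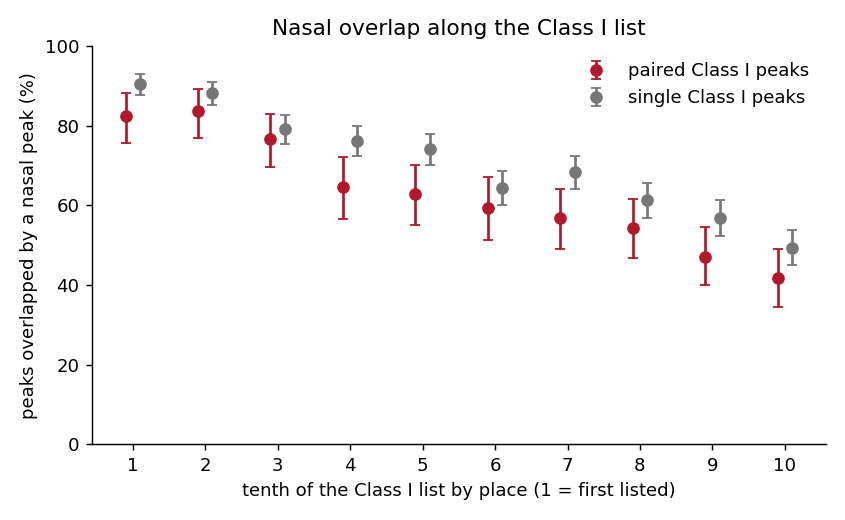
Share of Class I peaks overlapped by a nasal peak (y axis, percent) in 10 equal bins of the Class I list by place (x axis, 1 is listed first), for paired and single peaks. Points are shares and bars exact 95% intervals. Both fall along the list, paired peaks from 82.5% to 41.7% and single peaks from 90.5% to 49.4%.

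This difference depended on counting overlap peak by peak. When a nasal peak anywhere within 1 kb counted, a nasal peak on the partner counted as well, and the difference turned to 11.3 points (9.45 to 13.0). With the group as the unit, a nasal peak overlapped at least 1 member in 582 of the 669 groups of 2, or 87.0% (84.2% to 89.5%). Such a group offers 2 peaks to meet, where a single peak offers 1. A nasal peak lay within 1 kb of 611 of these groups, or 91.3%, and within 1 kb of 79.1% of single peaks.

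In groups of 2, nasal peaks fell on both members about as often as on 1. Both members were overlapped in 276 groups, or 41.3% (37.5% to 45.1%), exactly 1 in 306 groups, or 45.7% (41.9% to 49.6%), and neither in 87 groups, or 13.0% (10.5% to 15.8%). The left member, by position, was overlapped in 65.2% of groups and the right in 63.1%.

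Overlap of one member said little about the other. Where the left member was overlapped, the right was too in 276 of 436 groups, or 63.3% (58.6% to 67.8%). Where the left was not, the right was overlapped in 146 of 233 groups, or 62.7% (56.1% to 68.9%). The difference was 0.642 points, with an interval of -6.90 to 8.38 that includes 0 and also moderate dependence in either direction. In some groups a single nasal peak lay across both members. With those left out, which removes only groups overlapped on both sides, the shares were 57.6% and 62.7%. In groups with a gap over 400 bp, where no nasal peak spanned both members, the shares were 64.4% (57.2% to 71.2%) and 67.0% (56.9% to 76.1%).

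The share of pairs met on both members was highest where members shared bases, but there a single nasal peak can meet both, so this is a description. A single nasal peak lay across both members in 22 of the 41 pairs that shared bases, which is every pair there met on both. It did so in 15 of the 50 pairs with gaps up to 100 bp, where 23 were met on both. It did so in 2 of the 88 at 301 to 400 bp and in none beyond 400 bp. Among the 41 pairs that shared bases, nasal peaks overlapped both members in 53.7% (37.4% to 69.3%) and 1 member in 26.8%. At 101 to 200 bp these shares were 32.7% (23.8% to 42.6%) and 51.9%. From 401 to 1000 bp, both members were overlapped in 41.2% to 43.0% of groups per bin, values inside the interval of the pairs that shared bases. The share of members overlapped lay between 58.7%, at 101 to 200 bp, and 67.1%, among pairs that shared bases.

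**Figure D3:**
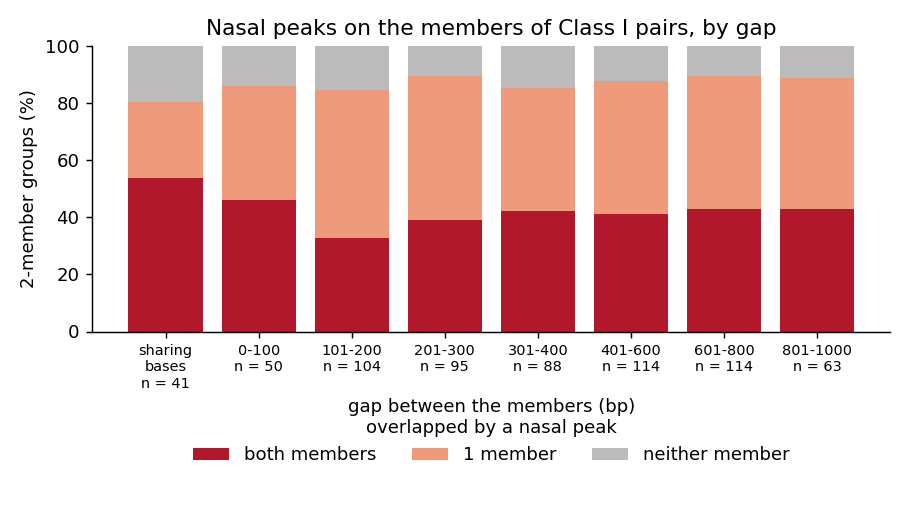
Groups of 2 Class I peaks divided by the gap between the members in bp (x axis, with the number of groups) into those overlapped by a nasal peak on both members, on 1 and on neither (y axis, percent of the groups in the bin). The share with both overlapped is highest, at 53.7%, where members share bases, lowest, at 32.7%, at 101 to 200 bp, and between 41.2% and 43.0% beyond 400 bp. Where members share bases, a single nasal peak lay across both in every group overlapped on both.

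Where 1 member alone was overlapped, it was usually the one listed earlier. This held for 221 of the 306 groups, or 72.2% (66.8% to 77.2%), against a reference of 50%. That reference takes no account of the fall of nasal overlap along the list. Single peaks fell as well, from 90.5% overlapped in bin 1 of the list to 49.4% in bin 10. Whether the share exceeds what this fall would give was not tested. The share grew with the distance between the members in the list. In the 102 groups whose members stood at most 1380 places apart, the overlapped member was the earlier in 53.9% (43.8% to 63.8%). In the 102 groups with members at least 3204 places apart, it was the earlier in 87.3% (79.2% to 93.0%). Over all groups of 2, the earlier-listed member was overlapped in 74.3% and the later-listed one in 54.0%. The overlapped member was also the wider in 58.2% of the 306 groups (52.4% to 63.8%), though with centres within 200 bp counted as overlap the share was 54.0%, with an interval of 48.3% to 59.7% that includes 50%. It was the left one in 52.3%, an interval (46.5% to 58.0%) that includes 50%.

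Where both members were overlapped, separate nasal peaks mostly met them at nearly the rib spacing. This was so in 217 of the 276 groups, or 78.6%. In these, the centres of the rib members lay a median of 632.5 bp apart and the centres of the nasal peaks on them 612 bp apart. The distances differed by a median of 55.5 bp and by at most 100 bp in 162 of the groups, or 74.7%, and their Spearman correlation across groups was 0.915. The requirement that peaks of such width overlap keeps the distances alike, so this is a description. The nasal spacing was the longer in 100 groups and the shorter in 117.

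A single nasal peak lay across both members in the other 59 groups. These pairs were close, with a median gap of 67 bp and a largest gap of 331 bp, and 22 of them shared bases. The spanning nasal peaks were wide, with a median of 313 bp, against 182 bp in the whole nasal list. Some nasal peaks lay between the members and met neither. Such a peak was found in 56 groups, 17 of the 87 with neither member overlapped, 27 of the 306 with 1 and 12 of the 276 with both. Of the 87 groups, 58 had no nasal peak within 1 kb.

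The nasal list often paired where the rib list did. Of the nasal peaks that met a paired Class I peak, 698 of 1015, or 68.8%, had another nasal peak within 1 kb, against 16.8% of those on single Class I peaks and 21.0% of the whole nasal list. Groups met on both members force much of this. On groups of 2 with 1 member overlapped, 71 of 313 nasal peaks, or 22.7% (18.2% to 27.7%), had such a neighbour. Those groups leave out a nasal peak on the partner by definition, so this share is held down by how they were chosen.

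The earliest-listed pairs show each pattern. On chromosome 17, 45732874 to 45733825, members of 165 and 176 bp lay 611 bp apart at places 116 and 12 of the Class I list. Nasal peaks of 216 and 151 bp shared 158 and 128 bp with them. On chromosome 4, 62877785 to 62878801, members of 210 and 222 bp lay 585 bp apart, and nasal peaks lay inside both, at 121 and 204 bp. On chromosome 6, 31075736 to 31076782, the members lay 696 bp apart, at places 65 and 84, and separate nasal peaks shared 183 and 149 bp with them. These were the 3 pairs with the lowest mean place that nasal peaks met on both members.

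The earliest-listed pairs met on 1 member stood farther down the list than the earliest met on both. Over all groups of 2, the median of the mean place was 3669.75 with 1 member met and 3427.5 with both. On chromosome 17, 27698044 to 27698939, a nasal peak of 327 bp covered the left member, of 147 bp, and none met the right member of 207 bp across a gap of 542 bp. A Class II peak lay within 1 kb of this pair. On chromosome 11, 93829606 to 93829934, members of 111 and 117 bp lay 101 bp apart, and a nasal peak of 139 bp covered the left one and ended short of the right. On the same chromosome, 69572092 to 69573168, a nasal peak of 67 bp met the right member, of 244 bp, and none met the left member of 34 bp. This left member was the earlier in the list, at place 425 against 910. A second nasal peak lay between these 2 members and met neither.

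Pairs without a nasal peak included one beside a dense stretch. On chromosome 17, 39985180 to 39985565, members of 295 and 347 bp shared 256 bp, the longest shared stretch of any group of 2. It lay close to a group of 9 on the same chromosome, described below, that nasal peaks left out as well. Repeated sequence was not looked for at this pair or at that group. On chromosome 11, 106077753 to 106078234, members of 191 and 109 bp lay 182 bp apart. On chromosome 15, 54109737 to 54110668, members of 109 and 160 bp lay 663 bp apart. None of these 3 pairs had a nasal peak within 1 kb. The pair with the widest gap, 1000 bp, lay on chromosome 6 at 125114610 to 125115815. A nasal peak of 379 bp covered its right member of 128 bp and reached into the gap. A second nasal peak lay between the members and met neither, though with centres within 200 bp counted as overlap 2 members were met.

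Members of longer groups were overlapped less often than members of pairs. Nasal peaks met 200 of the 368 peaks in groups of more than 2, or 54.3% (49.1% to 59.5%), and 858 of 1338 in groups of 2, or 64.1% (61.5% to 66.7%). The difference was -9.78 points (-15.5 to -4.12). Its interval included 0 at a pairing distance of 500 bp, where it was -3.98 points (-11.7 to 3.50), and with at least 50% of both peaks shared, where it was -4.69 points (-9.82 to 0.774). The 4 groups of 6 or more had 9 of 32 peaks overlapped, or 28.1% (13.7% to 46.7%). Without groups of 5 or more the difference was -6.65 points (-12.8 to -0.603). These intervals take members of the same group as independent and so are too narrow, and an upper end this close to 0 cannot place the difference below 0. A difference with a single peak per group was not computed for longer groups. Spacing within longer groups was like that within pairs, with a median gap of 331 bp against 347 bp.

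**Figure D4:**
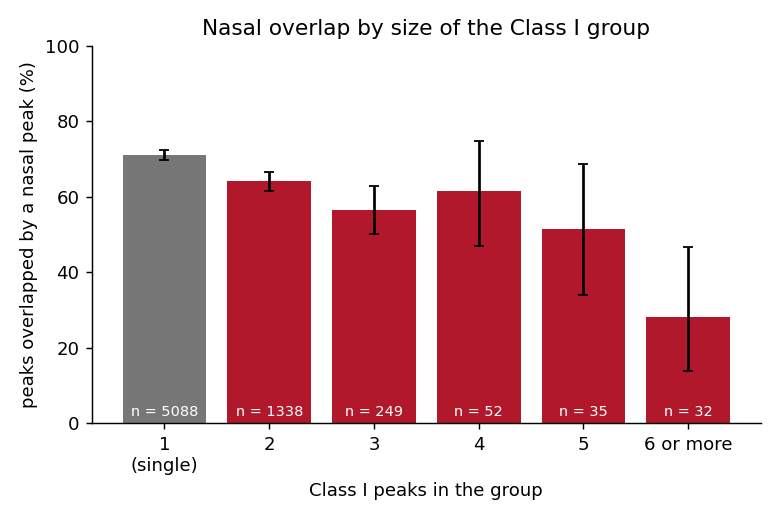
Share of Class I peaks overlapped by a nasal peak (y axis, percent, with exact 95% intervals) by the number of Class I peaks in the group (x axis), with the number of peaks in each bar. The share is 71.1% in single peaks, 64.1% in groups of 2, 56.6% in groups of 3, 61.5% in groups of 4, 51.4% in groups of 5 and 28.1% in groups of 6 or more, and the intervals from 4 members on are wide.

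Longer groups were seldom met on every member. Of the 107 groups, 21 had all members overlapped, 73 had some and 13 had none. The more members a group has, the more must be met for all to count, so these counts are a description. In the 83 groups of 3, nasal peaks met no member in 11, 1 member in 21, 2 in 33 and all 3 in 18. The middle member of a group of 3 was overlapped in 47 of 83, or 56.6%, and the outer ones in 94 of 166, which is the same share. Overlap again fell with place in the list, as it did in single peaks. The earliest-listed member of longer groups was overlapped in 69.2% (59.5% to 77.7%) and the latest-listed in 42.1% (32.6% to 52.0%).

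The 4 groups with the most members, and the longest of the 7 groups tied at 5 members, differed widely in nasal peaks. On chromosome X, 166428175 to 166434040, 9 peaks spanned 5866 bp, and 2 nasal peaks met 3 of them, members 2 to 4 from the left. On chromosome 17, 39979975 to 39983871, 9 peaks spanned 3897 bp with no nasal peak in or within 1 kb of the span. These peaks stood early in the Class I list, at places 29 to 1366 with a median of 100. Repeated sequence was not looked for in either stretch, on chromosome X or 17.

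On chromosome 15, 97831965 to 97835393, 8 peaks of 273 to 470 bp spanned 3429 bp, and 2 nasal peaks met 3 of them. This group stood at places 772 to 6292. On chromosome 18, 35019914 to 35024188, 6 peaks spanned 4275 bp, and nasal peaks met members 2, 4 and 5. It was the only one of these groups with a Class II peak within 1 kb. On chromosome 17, 34256155 to 34259762, 5 peaks spanned 3608 bp and nasal peaks met 4 of them. Over all 7 groups of 5, nasal peaks met 18 of 35 peaks, or 51.4%. There the member at place 20 of the Class I list held a nasal peak of 160 bp, at place 44 of the nasal list. With chromosomes X and 17 left out, the difference between paired and single peaks was -8.51 points and that between longer groups and groups of 2 was -9.09 points.

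**Figure D5:**
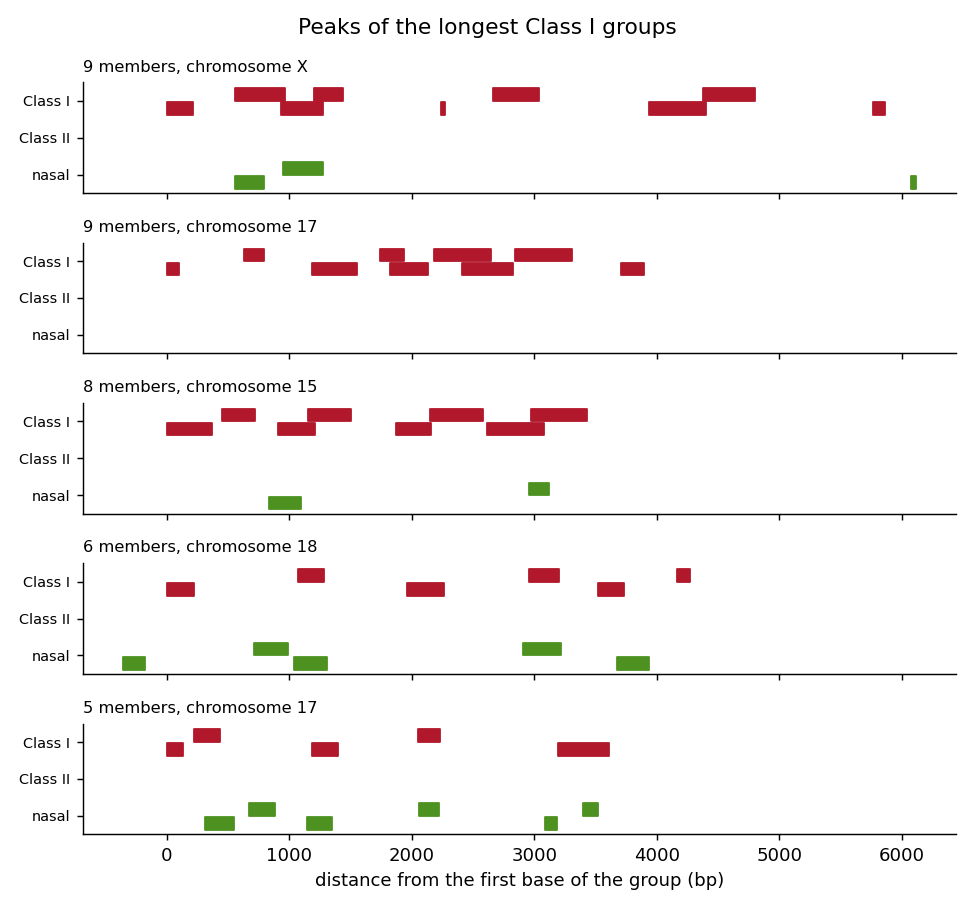
Peaks in and up to 500 bp beside the 4 Class I groups with the most members and the longest of the 7 tied at 5 members, drawn to scale as distance in bp from the first base of the group (x axis), with rows for Class I, Class II and nasal peaks and bars staggered so that overlapping peaks can be told apart. The group of 9 on chromosome 17 has no nasal peak, and the group of 5 on that chromosome has nasal peaks on 4 members.

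Class II peaks paired by the same rule did not show the lower nasal overlap of paired Class I peaks. Among Class II peaks, where 34.4% were overlapped in all, the shares were 35.4% in the 3146 paired and 34.2% in the single peaks, a difference of 1.23 points (-0.569 to 3.05). The Class I difference less the Class II difference was -10.3 points (-13.5 to -7.18), and -8.97 points (-12.0 to -5.99) with both standardised over place. This interval combines those of both differences and does not include 0.

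How far the 2 members go together differed between the classes in the unstandardised values, and not beyond the interval once place was taken into account. In Class II groups of 2, the right member was overlapped in 43.2% where the left was and in 31.5% where it was not, a difference of 11.7 points (6.23 to 17.1). With groups that 1 nasal peak spans left out, which removes only groups overlapped on both sides, the Class II shares were 37.3% and 31.5%. The Class I value less the Class II value, over all groups of 2, was -11.0 points (-20.3 to -1.57). Standardised over 5 bins of the mean place of the pair, the differences were -1.02 points in Class I (-8.74 to 6.70) and 4.97 points in Class II (-0.714 to 10.7). The interval between the classes, -15.6 to 3.60, included 0. With the later-listed member taken by the earlier-listed one, a setting chosen after seeing the data, the differences were 6.11 points in Class I (-2.49 to 14.7) and 18.6 points in Class II (14.3 to 22.8), and the first less the second was -12.5 points (-22.0 to -2.92). Class II pairs were met on neither member in 45.1% and on both in 14.7%. Where 1 Class II member was overlapped, it was the earlier-listed in 85.4%.

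Class I peaks seldom had Class II neighbours, whether paired or single. A Class II peak lay within 1 kb of 39 of the 1706 paired peaks, or 2.29% (1.63% to 3.11%), and of 2.46% of single peaks. The difference was -0.171 points (-0.936 to 0.741), an interval that includes 0. A division of the classes by distance from start sites could itself limit such neighbours, so these shares are a description. With all rib peaks allowed as neighbours, the share of Class I peaks with one within 1 kb was 27.0%, against 25.1% within the class.

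Pairing was found on every chromosome with Class I peaks. The paired share ranged from 17.9% of the 251 Class I peaks on chromosome 14 (13.4% to 23.2%) to 33.0% of the 188 on chromosome 18 (26.3% to 40.2%). On chromosome X, 25 of 93 peaks were paired, in 8 groups. The only Class I peak with a gene name in the lists, Jup, which encodes junction plakoglobin of cell junctions, was not among the members. Its peak on chromosome 11, 100256750 to 100257235, had its nearest Class I neighbour 19242 bp away.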

How the data were processed

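Chromatin was fixed with 1% formaldehyde for 10 minutes and sheared to 100 to 600 bp, with 18 PCR cycles of amplification, per the labels' protocols. The authors deposited 4 lists of Sox9 peaks as starts and ends in bp, with no other value, on mm9 per the submitters' processing notes. An FDR tag stands in the list names without an explanation, and no source used here names the aligner, the peak caller or the control library. The last Class I line is written with spaces, and its first fields were read as its position. It is also the 1 line out of the order of the whole rib list. Starts had 1 added for printing.

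Peaks were chained where the gap to the furthest earlier end was at most 1000 bp. Place is the line number in the list that holds the peak, which is the Class I list unless Class II or nasal is named. Standardised differences are Mantel-Haenszel differences with Sato's interval. Groups named are the 5 with the most members (ties by longer span, then position), the 3 earliest pairs with nasal peaks on both, 1 and no member, the extreme gaps and the line with a gene name. The members and lists were chosen with earlier results of these data known. The routines were tested on simulated lists and against bedtools 2.31.1, in Python 3.11.15 with numpy 2.4.6, pandas 2.3.3 and scipy 1.17.1. Other settings were a stricter overlap, centres within 200 bp, nasal peaks within 1 kb, pairing distances of 500 and 2000 bp, merged peaks, autosomes and subsets. No sequence was used, as no mm9 genome was at hand.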

Additional observations from a re-analysis of the deposited data

How the results depend on the processing

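Recomputing gave 56 values, of which 37 matched the reported ones in direction and in which side of no difference their interval lay, or, for the values without such a limit, stayed within the reported 95% interval. The difference in nasal overlap between paired and single Class I peaks stayed below 0 in 14 of 15 settings, from -10.8 to -7.00 points, and turned to 11.3 points when nasal peaks within 1 kb counted, where a nasal peak on the partner counts by construction. For the dependence of the right member on the left, that setting gave 96.5 points for the same reason. This dependence changed sign in 7 settings, all with intervals that include 0: -1.39 points with centres within 200 bp, -2.89 at a pairing distance of 2000 bp, -0.199 on autosomes, -1.80 with overlapping peaks merged, -5.10 without groups that 1 nasal peak spans, -1.02 standardised over place and -2.60 with gaps over 400 bp. It stayed positive, also with intervals that include 0, at 6.78 points with at least 50% of both peaks shared, 6.11 for the later-listed by the earlier-listed member and 3.75 at a pairing distance of 500 bp.

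The difference between longer groups and pairs no longer left out 0 with at least 50% of both peaks shared (-4.69 points), with nasal peaks within 1 kb (-3.33) and at a pairing distance of 500 bp (-3.98), and the cause was not tested. With nasal peaks within 1 kb, 3 groups of 2 had 1 member met, so the share with the earlier-listed member met, 33.3%, and that with the wider, 100%, say little. With centres within 200 bp the wider member was met in 54.0%, and the interval included 50%. The share of paired peaks was 17.2% at 500 bp, 30.2% at 2000 bp and 27.0% with all rib peaks as neighbours, and the median spacing was 537 bp from centre to centre. The settings with gaps over 400 bp, standardised over place for the dependence, the later-listed by the earlier-listed member, groups of 2 against single peaks, and without chromosomes X and 17 were chosen after seeing the data. No paired analysis was possible because each tissue has 1 Sox9 library. Depth is unknown, so a peak absent from a list may be a weak one.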
